A study of Mus musculus with 2 samples.

Results

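The cells described here are tumour-like cells of a mouse tumour that carried at least 5 unique molecular identifiers (UMIs, counted RNA molecules) of Krt16 and Klk8 summed, and they are called Krt16/Klk8 cells below. Tumour-like cells were those with at least 5000 UMIs, at most 20% mitochondrial UMIs, Lyz2 and summed C1qa, C1qb and C1qc each under 5 per 10000 UMIs, no UMI of the leukocyte gene Ptprc or the T cell gene Cd3e, and at least 1 UMI of Hmga2, Tnfrsf12a and Igf2bp2 summed. The rule found 287 Krt16/Klk8 cells among 9389 tumour-like cells and 24830 cells in all. The control library held 237 of them, 5.03% (4.43 to 5.70) of its 4709 tumour-like cells, and the library with the Gfpt2 hairpin held 50, 1.07% (0.794 to 1.41) of 4680.

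The study profiled 2 tumours labelled as lung cancer xenografts with 10x Genomics single-cell RNA-seq. LLC, the cell type given for both, is the Lewis lung carcinoma line, a transplantable mouse tumour. One tumour was labelled control (NC) and the other (SH) received a short hairpin RNA against GFPT2, which lowers an mRNA without deleting its gene. It is called the knockdown library below. Host strain, sex and age, the number of tumours pooled, the hairpin's sequence and vector, and what the control cells carried are not given in the sources used here. The series' stated aim concerns the immune environment of the tumour and signals between its cells. With 1 library per group no replicate spread exists and no test was run. Every interval is a 95% interval for counting error alone.

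Krt16 is a type I keratin that skin and other stratified epithelia make under stress or after wounding. Klk8 (neuropsin) belongs to the kallikreins, secreted serine proteases whose genes lie next to each other. Gfpt2 is the second isozyme of the rate-limiting enzyme of hexosamine synthesis, which makes the sugar donor for glycosylation from fructose 6-phosphate and glutamine, and Lcn2 is a secreted protein that binds iron-carrying siderophores and is typical of acute-phase responses.

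The start regions of 3 leading genes are shown because Gfpt2 is the gene targeted in the study and Klk8 and Klk10 are kallikrein genes of the same gene cluster that were both high in these cells. The sequences are from RefSeq on GRCm38.p6, 250 bases before to 50 after the annotated start, on the + strand and 5′ to 3′. Capitals mark the AP-1 letters TGANTCA. The Gfpt2 window lies at chr11:49793905-49794204, the Klk8 window at chr7:43797327-43797626 and the Klk10 window at chr7:43780804-43781103.
Gfpt2: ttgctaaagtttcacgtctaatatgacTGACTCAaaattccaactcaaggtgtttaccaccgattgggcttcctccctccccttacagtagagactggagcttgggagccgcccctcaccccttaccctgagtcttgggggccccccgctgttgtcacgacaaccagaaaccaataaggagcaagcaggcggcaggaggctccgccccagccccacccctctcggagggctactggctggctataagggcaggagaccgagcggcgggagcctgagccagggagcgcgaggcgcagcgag
Klk8: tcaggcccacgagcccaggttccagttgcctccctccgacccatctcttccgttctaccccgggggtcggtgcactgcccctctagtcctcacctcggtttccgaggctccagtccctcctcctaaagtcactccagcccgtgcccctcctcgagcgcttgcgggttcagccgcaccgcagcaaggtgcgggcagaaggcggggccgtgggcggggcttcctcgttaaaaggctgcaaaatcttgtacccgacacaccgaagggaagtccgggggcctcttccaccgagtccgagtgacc
Klk10: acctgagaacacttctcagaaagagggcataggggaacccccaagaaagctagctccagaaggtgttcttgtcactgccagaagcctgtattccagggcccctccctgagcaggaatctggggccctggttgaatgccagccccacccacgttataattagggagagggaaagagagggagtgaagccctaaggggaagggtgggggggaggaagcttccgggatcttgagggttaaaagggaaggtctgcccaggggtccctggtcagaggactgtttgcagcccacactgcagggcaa
Of 18 genes looked up, 13 had a window, and Krt16, Slurp1, Cdh19, Sparcl1 and Spon2 had none. The AP-1 letters, searched on both strands, stood in 1 of the 13, the Gfpt2 window, against 7.81% of all windows. The SOX letters AACAAT, searched on both strands, stood in 0 of the 13 against 10.7% of all windows. The letters TATAAA, searched on the sense strand, stood in 1 of the 13, that of Spp1, against 8.32%. These matches describe the letters only.

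The tumour-like label was set against genes outside the gate first. Levels are in CPM, a gene's UMIs per 1000000 UMIs, both summed over the cells. Of the LLC tumour markers listed, 13 genes with 10 above the count floor explained below, 1, Krt7, was at least 2-fold higher and 0 were 2-fold lower, and 3 of the list (Hmga2, Igf2bp2 and Tnfrsf12a) are gate genes. Mesenchymal genes were high in these cells as in the others, with Vim at 2713 and 2225 CPM and S100a4 at 2148 and 2459 CPM. The simple-epithelium keratins Krt8, Krt18, Krt19 and Krt20 had 0 UMIs in the Krt16/Klk8 cells. These 237 cells held 6354839 UMIs in all, so a count of 0 allows up to 0.472 CPM (3 counts). In the other control tumour-like cells these 4 keratins were at 0.0104 to 0.156 CPM, under that limit, so the zeros do not set the groups apart. Krt7, named above, was at 3.15 against 0.945 CPM.

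Markers of other cell types were summed by list, as measured facts beside everything that follows. The summed level in Krt16/Klk8 cells and in the other control tumour-like cells was 609 and 643 CPM for 12 macrophage genes, 7.71 and 7.15 for 10 T cell genes, 3.30 and 4.55 for 8 NK genes, 1.26 and 2.72 for 9 neutrophil genes, and 11.02 and 8.35 for 8 endothelial genes. For 10 fibroblast genes it was 1612 and 2467 CPM. The 12 alveolar and airway genes summed to 54.0 and 40.8 CPM, with 9 of the 12 at 0 UMIs and nearly all of the sum from Hopx. The 10 keratinocyte genes summed to 42.5 and 37.2 CPM, with 5 of the 10 at 0. None of these sums but that of fibroblast genes and the small neutrophil sum differed by more than 1.5 times. The gate limits Lyz2, the C1q genes, Ptprc and Cd3e in both groups, so similar leukocyte sums are partly set by it.

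The control Krt16/Klk8 cells were somewhat deeper than the cells they are compared with. Their median was 24614 UMIs and 5184 detected genes, with 1.52% mitochondrial UMIs, against 19446.5 UMIs, 4504.5 genes and 1.75% in the other 4472. In the knockdown library the medians were 20958.5 and 15627 UMIs. The count threshold was not scaled to depth, so a deeper cell passes it more easily. Between the libraries 37 barcodes were shared, none of them a Krt16/Klk8 cell. A doublet score (Scrublet) placed 17 of the 237 control cells (7.17%) in the top rank, which took 9.59% of all control cells and 141 of the 4472 other control tumour-like cells (3.15%). Of control cells with both genes it took 11 (8.03%), and of the 50 knockdown cells 0. Without the top rank the Gfpt2 log2 ratio described below was 5.13 against 5.06 with it, and 643 against 609 genes were at least 2-fold higher. Outside the gate, 84 further control cells and 21 knockdown cells had at least 5 UMIs of the gene pair, and 57 of those 84 held Ptprc.

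The rule's own genes are given as a description. In the control cells Krt16 ranged from 0 to 297 UMIs with a median of 5, and Klk8 from 0 to 71 with a median of 8. Klk8 was spread over 215 of the 237 cells and Krt16 over 159. The sum over cells was 547 CPM for Krt16 against 2.18 CPM in the other tumour-like cells, and 433 against 3.85 CPM for Klk8. Macrophage-like cells had Krt16 in 2.75% and Klk8 in 4.40% of cells at a median depth of 8263 UMIs, against 3.42% and 4.61% of the other control tumour-like cells. Some macrophage-like cells held many UMIs, up to 53 of Krt16. With every cell thinned to 5000 UMIs the shares were 0.917% and 1.72% in the other tumour-like cells and 1.70% and 2.44% in macrophage-like cells. The rule caps the pair at 4 UMIs in the other tumour-like cells and caps nothing in macrophage-like cells, so these shares are given side by side only. Of the Krt16 UMIs of macrophage-like cells 60.3% lay in 5 cells.

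Krt16 and Klk8, which set the rule, were found in the same cells more often in the control library. Of the 237 control cells, 137 (57.8%, 51.2 to 64.2) had both genes, 22 had Krt16 alone and 78 had Klk8 alone. Of the 50 knockdown cells, 2 (4%, 0.488 to 13.7) had both, 23 had Krt16 alone and 25 had Klk8 alone. Among all tumour-like cells with a Krt16 UMI, 147 of 312 control cells (47.1%, 41.5 to 52.8) and 4 of 118 knockdown cells (3.39%, 0.931 to 8.45) also had Klk8. Among those without Krt16 the Klk8 shares were 6.23% and 2.26%. In the control library the Klk8 share was thus higher beside Krt16 than without it, and in the knockdown library the intervals overlapped. Both genes set the rule, so these shares are a description only and were not tested.

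**Figure D1:**
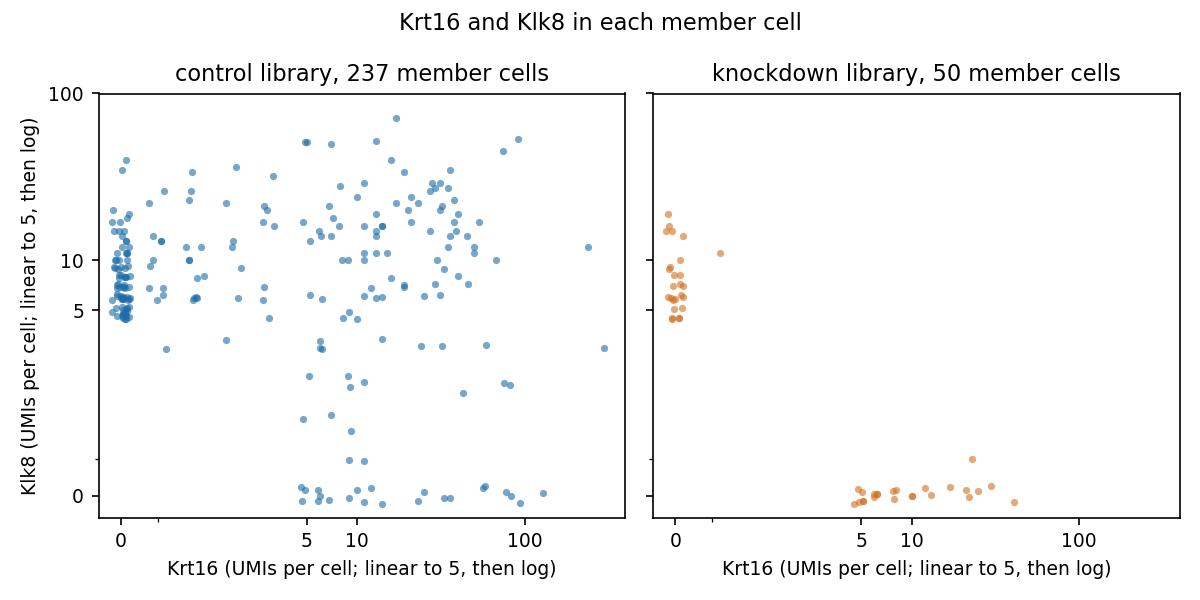
Krt16 against Klk8 UMIs in each Krt16/Klk8 cell (axes linear to 5 UMIs and logarithmic above, points jittered below 10 UMIs), control library left and knockdown library right. Of the control cells 137 lie off both axes, and of the knockdown cells 2 do.

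Gfpt2 (ENSMUSG00000020363, chromosome 11), the targeted gene, was concentrated in the control Krt16/Klk8 cells. They held 134 of the 195 Gfpt2 UMIs of the control tumour-like cells, 68.7% (61.7 to 75.2) in 5.03% of the cells. Their level was 21.1 CPM (17.7 to 24.97) against 0.633 CPM (0.485 to 0.814) in the others, 33.3 times higher, a log2 ratio of 5.06 (4.61 to 5.52). A Gfpt2 UMI was found in 79 of the 237 cells (33.3%), with at most 5 in a cell, and in 0.894% of the others and 0.959% of macrophage-like cells. With every cell thinned to 5000 UMIs the shares were 12.2% (8.35 to 17.1), 0.380% and 0.262% in that order. The intervals of the other tumour-like cells (0.222 to 0.608%) and of macrophage-like cells (0.0960 to 0.568%) overlapped, and that of the Krt16/Klk8 cells lay above both. Gfpt1, the paralog in the same step, was at 29.7 and 30.8 CPM.

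In the knockdown library Gfpt2 had 56 UMIs over all tumour-like cells against 195 in the control library. Its 50 Krt16/Klk8 cells held 5 of them, where 24.7 would stand at the control cells' level, or 4.26 CPM (1.38 to 9.95) against 0.622 CPM in the other knockdown tumour-like cells. The log2 ratio within the knockdown library was 2.78 (1.10 to 4.09). Between the Krt16/Klk8 cells of the libraries, knockdown over control, it was -2.31 (-3.95 to -1.05). The other tumour-like cells of the 2 libraries, at 0.633 and 0.622 CPM, did not differ beyond counting error. Beside these values, the knockdown library had fewer Krt16/Klk8 cells and a different mix of classes among them.

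The Gfpt2 level also differed with the Krt16 and Klk8 count, which set the rule. In control tumour-like cells it was 0.4998 CPM at 0 UMIs of the pair, 0.379 at 1, 3.18 at 2, 7.01 at 3 to 4, 15.53 at 5 to 9, 15.7 at 10 to 19 and 27.6 at 20 or more. The 34 control cells just outside the threshold, with 4 UMIs, had 9.96 CPM (4.30 to 19.6) and the 23 just inside, with 5, had 3.57 CPM (0.432 to 12.9). The threshold of 5 therefore did not separate a Gfpt2-rich from a Gfpt2-poor group by itself. By class Gfpt2 was at 25.7 CPM in cells with both genes, 17.4 (8.35 to 32.0) with Krt16 alone and 13.7 (9.09 to 19.8) with Klk8 alone.

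**Figure D2:**
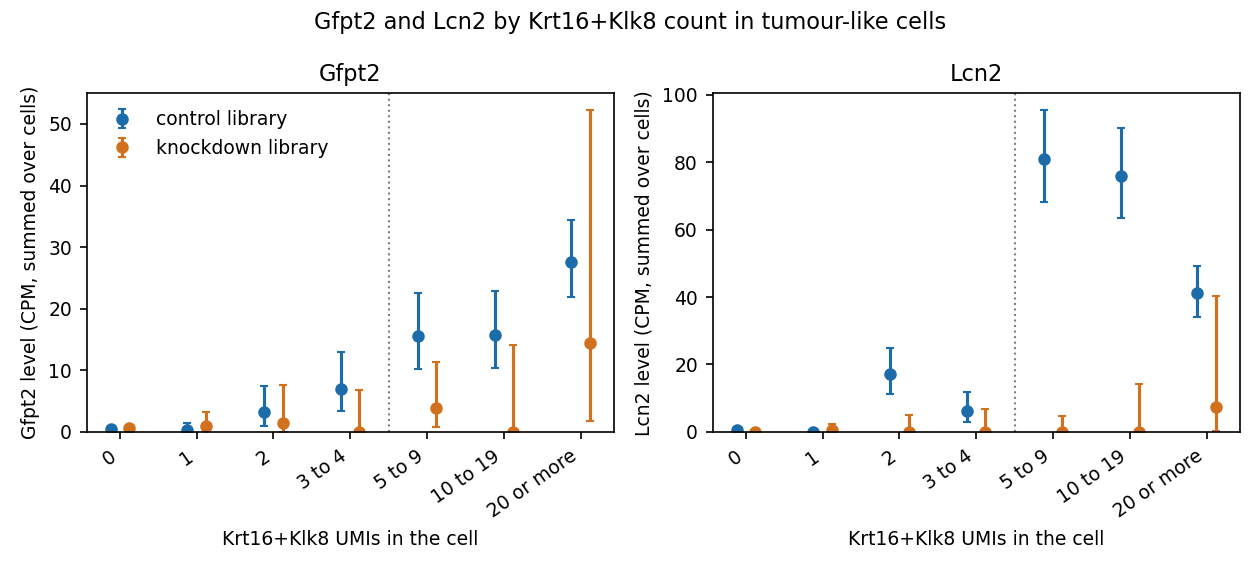
Level of Gfpt2 (left) and Lcn2 (right) in CPM, summed over tumour-like cells grouped by their Krt16 plus Klk8 count, for each library; bars are 95% counting intervals and the dotted line is the threshold of 5 UMIs. Control Gfpt2 goes from 0.4998 CPM in cells with 0 UMIs to 27.6 CPM in cells with 20 or more, while Lcn2 is highest, at 81.1 CPM, in cells with 5 to 9.

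Lcn2 marked few of these cells. It had 391 UMIs in the control Krt16/Klk8 cells, 61.5 CPM (55.6 to 67.9) against 0.935 CPM in the others, a log2 ratio of 6.04 (5.71 to 6.39). However, 207 of the 237 cells had none, the highest cell had 53 and the 12 highest cells held 91.3% of the UMIs. Both Lcn2 and Gfpt2 were found in 8 cells, where 30 cells held Lcn2 and 79 held Gfpt2. The knockdown cells had 1 Lcn2 UMI where 72.2 would stand at the control level. The label of Gfpt2-rich cells fitted the sum over the control cells. In the knockdown cells it rests on 5 Gfpt2 UMIs in 5 cells, and thinned to 5000 UMIs 0 of the 50 had one (0 to 7.11%). At the Gfpt2 counts measured, cells with 0 UMIs cannot be told from cells that express it, so the share of cells that do was not estimated. Lcn2 UMIs lay in few cells.

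Other genes of the hexosamine pathway did not follow Gfpt2. Of 13 genes, all tested, 1 (Gfpt2 itself) was at least 2-fold higher in the control Krt16/Klk8 cells and 0 were 2-fold lower, with a median log2 ratio of 0.02. A gene counted as tested where it had at least 50 UMIs in either group. Over all 13239 such genes 609 (4.6%) were at least 2-fold higher and 642 (4.85%) at least 2-fold lower, with a median of -0.03. The nearest to 2-fold were Uap1l1 and Uap1, which make the pathway's end product, at 95.5 against 50.9 CPM and 140 against 90.6 CPM. Pgm3, which acts before them, was at 16.5 against 21.2 CPM, and Ogt, which transfers the product's sugar to proteins, at 75.5 against 79.2 CPM. Of 9 tested hyaluronan genes 2 were 2-fold higher, among them the synthase Has2 at 66.4 against 25.5 CPM, and the proteoglycan Vcan was 2-fold lower at 119 against 243 CPM.

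All genes of these cells share the cells that the rule picked, so the differences from the other control cells below are a description with no test. The 15 genes named as higher were ranked by the near end of their intervals among genes found in at least 10% of the cells. Several belong to nerve and glial cells in textbook accounts. Gjc3, a glial connexin, was at 18.6 CPM (15.4 to 22.2) against 0.0727 CPM, with an interval of 6.91 to 9.34 for the log2 ratio. Cdh19, a cadherin of the Schwann cell lineage, was at 33.2 against 0.571 CPM and was found in 45.1% of Krt16/Klk8 cells and 0.917% of the others. Chl1, a neural adhesion molecule, was at 28.8 against 0.779 CPM, Tspan2, a tetraspanin of oligodendrocytes, at 17.6 against 0.166 CPM, and Apba2, a neuronal adaptor protein, at 37.5 against 0.530 CPM. Other glial genes were looked at after these values were seen. Sox10, Ngfr and Foxd3 had 0 UMIs, and Erbb3, a neuregulin receptor, was at 27.5 against 8.26 CPM.

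A further group of the 15 encodes secreted and matrix proteins. Spp1 (osteopontin) was at 476 CPM (459 to 493) against 16.7 CPM and was found in 72.6% of the cells. Macrophage-like cells had Spp1 at 805 CPM. The macrophage marker sum was 609 CPM in the Krt16/Klk8 cells and 643 CPM in the others, but the gate limits macrophage genes in both groups. The source of the Spp1 RNA was not tested. Sparcl1, a matrix glycoprotein, was at 116 CPM (108 to 125) against 3.05 CPM and was found in 65.0% of the cells against 2.75%. Hapln1, which links hyaluronan to proteoglycans, was at 19.7 against 0.0935 CPM and the matrix protein Spon2 at 12.9 against 0.270 CPM. Slurp1, a secreted keratinocyte peptide that acts at nicotinic receptors, was at 95.2 against 1.71 CPM and the kallikrein Klk10 at 24.5 against 0.675 CPM. Lcn2, described above, is also among the 15. The remaining genes were Gna14, a G protein alpha subunit, at 41.2 against 0.311 CPM, Arhgap6, a GTPase-activating protein, at 35.1 against 0.592 CPM, and Fxyd3, a subunit of the sodium pump, at 8.97 against 0.208 CPM. The chemokine gene Ccl5, named after its values were seen, was at 1474 against 89.3 CPM and 346 CPM in macrophage-like cells.

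**Figure D3:**
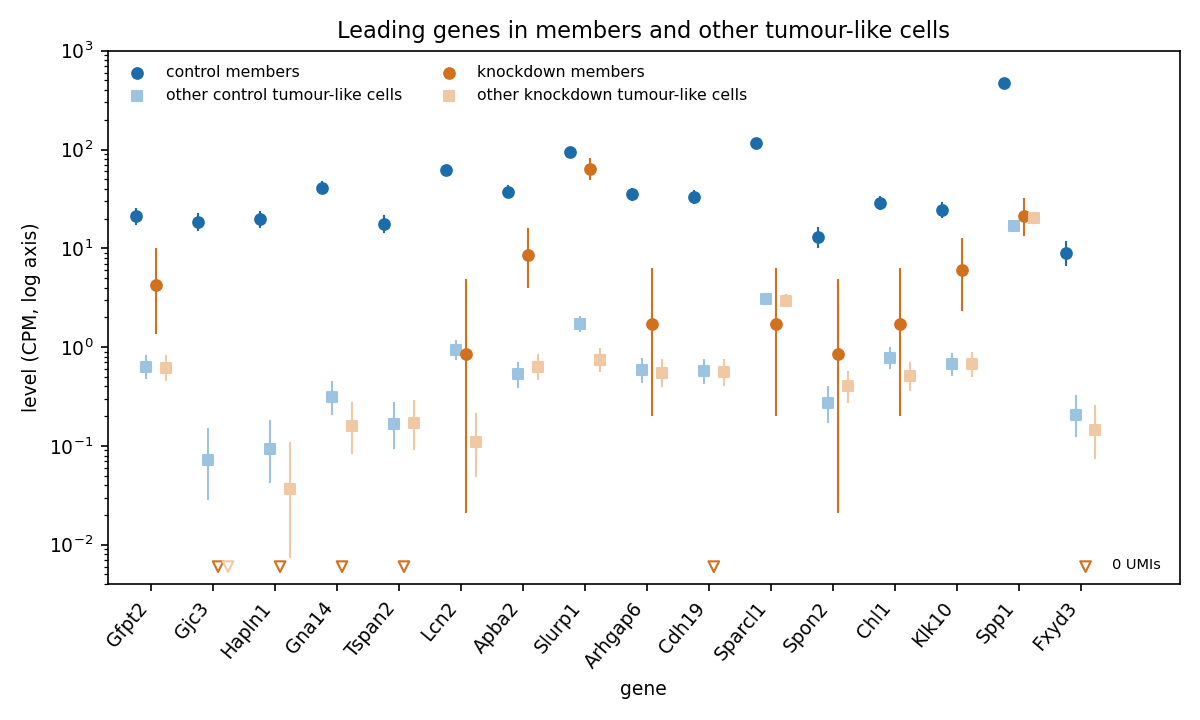
Level in CPM (logarithmic axis) of Gfpt2 and the 15 genes named as higher, in Krt16/Klk8 cells (members) and other tumour-like cells of each library; bars are 95% counting intervals and open triangles mark 0 UMIs. All 16 genes lie far higher in the control members than in the other control cells, and 6 of the 15 have 0 UMIs in the knockdown members.

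The genes named as lower included matrix and guidance genes, among others. The fibrillar collagens Col1a1 and Col3a1 were at 2.05 against 18.0 CPM and 409 against 1376 CPM, log2 ratios of -3.14 (-4.05 to -2.36) and -1.75 (-1.81 to -1.69). Cilp, a cartilage matrix protein, was at 2.05 against 19.4 CPM, the matricellular gene Postn at 55.1 against 181 CPM and the short-chain collagen Col8a1 at 14.2 against 55.7 CPM. The repellent Sema3a and its receptor Nrp1 were both lower, at 5.04 against 25.6 CPM and 7.71 against 32.4 CPM. Zfpm2, a cofactor of GATA factors, was found in 40.1% of Krt16/Klk8 cells and 86.4% of the others, at 59.2 against 232 CPM. The lipid carrier Fabp4 was at 6.77 against 30.5 CPM. Dpysl3, Vav3, Osr2, Sorcs2 and Fbxl7 had log2 ratios from -2.20 to -1.70.

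Most of the listed keratins, kallikreins and squamous genes lay below the count floor. Over all tested genes 4.6% were at least 2-fold higher. Of 22 keratins only 5 were tested and 2 of them were 2-fold higher, Krt16 by the rule and Krt7 at 3.15 against 0.945 CPM. Krt14, of basal keratinocytes, was at 11.8 against 13.9 CPM. Of 12 kallikreins 4 were tested, and Klk8 and Klk10 were 2-fold higher. Klk9, which lies between them in the cluster, was at 0.787 against 0.665 CPM. Of 34 squamous and cornified envelope genes 6 were tested, with Sfn and Pkp1 higher at 2.68 and 1.57 CPM, and 23 had 0 UMIs. Of 19 epithelial-state genes 1 was tested and it was not 2-fold different, and the list summed to 4.09 against 1.65 CPM. Below the count floor, the epithelial transcription factor Ehf, named after its values were seen, had 11 UMIs in 9 Krt16/Klk8 cells and 0 in the 4472 others. Also below it, Krt13 had 5 UMIs in 4 cells and 0 in the others, and Klk6 was at 1.10 against 0.0935 CPM with 7 UMIs in 2 cells. In the Krt16/Klk8 cells 13 of the 22 keratins and 4 of the 12 kallikreins had 0 UMIs.

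Matrix, protease and growth factor lists were split, beside 4.6% of all tested genes higher and 4.85% lower. Of 16 tested fibroblast matrix genes 7 were 2-fold lower and 1 higher (median -0.59), the one being Pcolce, an enhancer of procollagen cleavage, at 382 against 172 CPM. This list shares Col1a1 and Col3a1 with the genes named above, and both are also in the fibroblast marker list, whose sum of 1612 against 2467 CPM moves with it. The part of that sum in the result was not tested. Among 17 tested proteases and plasminogen genes, Mmp2 (127 against 49.5 CPM), Mmp3 (62.2 against 4.23) and Mmp12 (11.6 against 1.85) were higher, and 4 were lower, among them F3 (44.5 against 103) and Plat (14.8 against 37.2). In the IGF axis 3 of 9 were higher, all of them binding proteins that hold growth factor outside cells. Igfbp4 was at 312 against 78.0 CPM, Igfbp6 at 633 against 217 CPM and Igfbp5 at 12.1 against 0.322 CPM. The 4 lower ones were Igfbp3, Igfbp7, Igf1r, the receptor, at 33.7 against 83.6 CPM, and the imprinted RNA H19 at 191 against 498 CPM. Of 16 mesenchymal genes the transcription factor Prrx1 alone was higher, at 178 against 53.7 CPM, and Acta2 had 0 UMIs and was counted as lower.

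Stress, iron and metabolic lists mostly stayed within 2-fold, as most tested genes did. Of 19 tested NRF2 target genes 2 were higher and 0 lower, Fth1, the ferritin heavy chain, at 10210 against 3820 CPM and Nqo1 at 3.93 against 1.47 CPM. Ftl1, the ferritin light chain, was at 3225 against 3005 CPM. Of 19 unfolded protein and stress genes Phgdh, the entry enzyme of serine synthesis, was higher at 1746 against 525 CPM, while Psat1, the next enzyme, was at 93.2 against 92.0 CPM. Of 9 acute-phase genes Lcn2, Hp and Cfb were higher, the latter pair at 2.05 and 3.30 CPM. Of 23 glycolysis and hypoxia genes Car9 was higher, at 9.28 against 2.87 CPM. None of 21 cholesterol and fatty acid genes passed 2-fold, with a median of -0.45, and Hmgcs1, an early enzyme, was at 40.6 against 78.9 CPM.

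Signalling, immune and cycle lists are given beside shares of 4.6% higher and 4.85% lower over all tested genes. Of 16 EGFR and MAPK feedback genes Dusp6 (46.6 against 21.4 CPM) and Phlda1 (186 against 74.0) were higher and 4 were lower, among them the ligands Ereg and Hbegf. Of 19 NF-kB targets 0 were higher and 2 lower (Ptgs2 and Il33), of 17 interferon genes 0 and 1 (Rsad2, 44.2 against 107 CPM), and of 20 immediate early genes 0 and 2. Class I antigen presentation (13 genes) and S phase (20) had none in either direction. Of 20 G2/M genes Aurkb was higher, at 82.3 against 40.6 CPM, with a list median of 0.25. Of 14 genes that mark other groups of tumour-like cells in these data, chosen from them, 6 were higher, led by the kinase Prkg2 at 510 against 76.9 CPM, and 1 was lower.

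In single cells the leading genes came together in the cells with both rule genes. Of the 15 genes, the control cells with both Krt16 and Klk8 held a median of 7, and 133 of 137 (97.1%) held 3 or more. Thinned to 5000 UMIs per cell, the same class held a median of 3, with 61.3% at 3 or more. Cells with Klk8 alone held a median of 1, with 35 of 78 holding none and 24 holding 5 or more, so that class was mixed. Cells with Krt16 alone held a median of 1. Of the other control tumour-like cells 31 of 4472 (0.693%) held 3 or more, and of macrophage-like cells 1.22%. Thinned to 5000 UMIs, 44.7% of the Krt16/Klk8 cells and 0.291% of the others held 3 or more. None of the 50 knockdown cells held more than 2. These genes were chosen on the control cells' sum, and so their presence in control cells is a description, while the knockdown cells took no part in the choice.

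**Figure D4:**
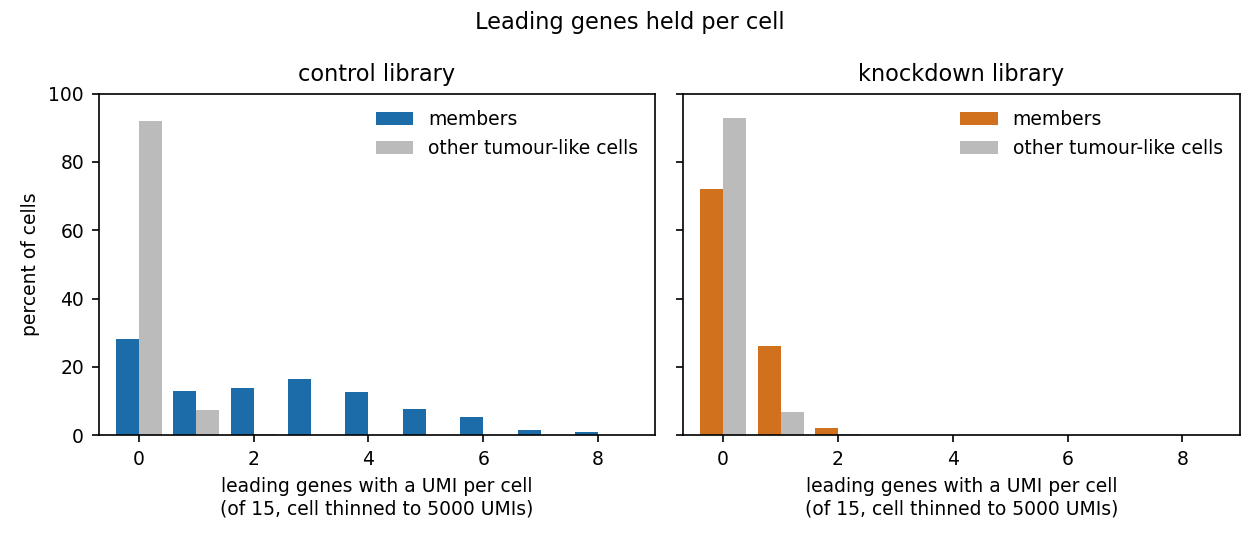
Percent of cells by the number of the 15 genes named as higher that have a UMI, after thinning each cell to 5000 UMIs, for Krt16/Klk8 cells (members) and other tumour-like cells of each library. Of the control members 44.7% hold 3 or more, against 0.291% of the other control cells and 0 of 50 knockdown members.

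Nearest neighbours in expression were compared next. The 15 nearest cells of each tumour-like cell were found in its own library from 2000 variable genes without the 4 markers. Control cells with both genes had a median of 14 Krt16/Klk8 cells among their 15 neighbours, those with Krt16 alone 6, those with Klk8 alone 1 and the other tumour-like cells 0. Knockdown Krt16/Klk8 cells had a median of 0, with 1 for those with Krt16 alone, and none had 8 or more. Krt16/Klk8 cells made up 1.07% of the knockdown and 5.03% of the control cells searched, so fewer such neighbours stand there by number alone. The mean was 0.8 in knockdown Krt16/Klk8 cells against 0.152 in the other knockdown cells, and 9.59 against 0.310 in the control library. By their neighbours 19 other control cells, under the threshold, lay among the Krt16/Klk8 cells, and these held a median of 5 of the leading genes.

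The classes differed in which genes they held. Slurp1 was at 516 CPM in control cells with Krt16 alone, 77.7 with both and 9.28 with Klk8 alone, with 139 UMIs in its highest cell and 55.2% of its UMIs in 5 cells. Gna14 was at 58.7 CPM with both, 0 with Krt16 alone and 21.0 with Klk8 alone. Spp1 was at 595, 40.1 and 379 CPM in that order, Cdh19 at 48.2, 5.23 and 13.7 CPM and Klk10 at 39.1, 1.74 and 4.40 CPM. Among the genes named as lower, Col3a1 was at 275 CPM with both, 322 with Krt16 alone and 677 with Klk8 alone, against 1376 in the others, and Postn at 33.5, 6.97 and 108 CPM against 181. The 22 cells with Krt16 alone held 574118 UMIs.

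The 15 genes named as higher were next read in the Krt16/Klk8 cells of the knockdown library. Within that library 462 of 13139 tested genes (3.52%) were at least 2-fold higher in them and 599 (4.56%) at least 2-fold lower. Of the 15 genes named as higher, 3 with at least 50 UMIs in a group were at least 2-fold higher there, Slurp1, Apba2 and Klk10, each with an interval above 0, as 5.81% of all genes tested there had. Another 4, below that floor, also had ratios past 2-fold, with intervals that included 0. All 15 were lower than in the control Krt16/Klk8 cells beyond counting error, where they had been chosen for being high. The share of all tested genes that differed between these 2 groups is not given here, so this count has no background beside it. The classes differ in number, since cells with both genes are 137 of 237 control and 2 of 50 knockdown cells. Within a class the values differed by gene. Klk10 was at 11.2 CPM in knockdown and 4.40 CPM in control cells with Klk8 alone, and Apba2 at 19.7 and 24.4 CPM in cells with Krt16 alone. Spp1, however, was at 38.4 and 379 CPM in cells with Klk8 alone, and Slurp1 at 147 and 516 CPM in cells with Krt16 alone. Sparcl1 had 0 UMIs in knockdown and 75.7 CPM in control cells with Klk8 alone. The part of the class mix in the difference was not tested. Gjc3, Hapln1, Gna14, Tspan2, Cdh19 and Fxyd3 had 0 UMIs, which allows up to 2.56 CPM (3 counts). At the level of all control Krt16/Klk8 cells 48.3 UMIs of Gna14 and 38.9 of Cdh19 would stand there. The limits for these genes lie above their levels in the other knockdown cells, so a higher level within that library is not excluded by 0 UMIs. Control cells with Krt16 alone also had 0 UMIs of Gjc3, Hapln1, Gna14 and Fxyd3. Sparcl1 had 2 UMIs where 136 would stand, and Spp1 was at 21.3 CPM against 20.3 CPM in the other knockdown cells.

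The shared genes lay in different classes. Slurp1 had 75 UMIs in the knockdown Krt16/Klk8 cells, all in 5 of the 23 cells with Krt16 alone, or 147 CPM in that class. Klk10 had 7 UMIs, all in cells with Klk8 alone. Ccl5 was at 2247 CPM in knockdown cells with Krt16 alone and 33.6 CPM in those with Klk8 alone, with 84.9% of its UMIs in 5 cells. Krt14 was higher in the knockdown Krt16/Klk8 cells than in the control ones, at 91.2 against 11.8 CPM. Of 17 interferon-response genes 3, Rsad2, Mx1 and Oasl1, were at least 2-fold higher in the knockdown Krt16/Klk8 cells than in the other knockdown tumour-like cells, against 3.52% of all genes, and the list summed to 5278 against 3548 CPM. The antiviral gene Rsad2 was at 459 against 130 CPM, a log2 ratio of 1.82 (1.69 to 1.95), with 467 of its 538 UMIs in cells with Krt16 alone, and Mx1 was at 44.3 against 11.5 CPM. In the control library the same sum was 2686 against 2679 CPM. Of the 15 genes named as lower, Col1a1 and Vav3 were at least 2-fold lower in the knockdown library, 10 had an interval below 0, against 7.3% of all genes tested there, and Dpysl3 had an interval above 0. Col1a1 had a log2 ratio of -1.94 (-3.26 to -0.896), whose interval overlaps that of the control library, and Col3a1 of -0.72 (-0.811 to -0.637). Whether the differences between the libraries go with the hairpin or with the tumours cannot be told apart with 1 library each.

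The control Krt16/Klk8 cells also differed by chromosome, a result looked for after the data were seen. Genes were placed by identifier with the GENCODE M21 annotation of GRCm38, and 8748 genes with at least 50 UMIs in both groups were used, with a median log2 ratio over all of 0.00. The 777 genes of chromosome 11, which carries Gfpt2, Krt16 and Ccl5, had a median of 0.34, and 88.4% of them lay above 0. Chromosome 14 had a median of -0.28 with 14.4% of 291 genes above 0, and chromosome 4 a median of 0.22. Along chromosome 11 the medians of its 10 consecutive parts lay between 0.26 and 0.40, and on chromosome 4 the last part reached 0.62. In control cells with both genes the medians were 0.49, -0.42 and 0.28 for chromosomes 11, 14 and 4. In cells with Klk8 alone they were 0.13, -0.11 and 0.05.

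The same was seen cell by cell with all genes that differed 2-fold left out. Chromosome 11 gave a median of 13.9% of the remaining UMIs in control cells with both genes and 10.2% in the other tumour-like cells, and 136 of the 137 lay above the upper quartile of the others. Cells with Krt16 alone had 11.7% and with Klk8 alone 11.2%. In the knockdown library cells with Krt16 alone had 12.5%, with Klk8 alone 10.9% and the others 10.1%. For chromosome 14 the medians were 2.55% in control cells with both genes and 3.55% in the others, and in the knockdown library 3.63% in all Krt16/Klk8 cells and 3.52% in the others. The lower chromosome 14 share was thus seen in the control cells with both genes and in no knockdown class of more than 2 cells. For chromosome 4 the cells with Krt16 alone had 6.06% and those with both genes 6.29%, against 4.99% in the others of the control library. In the knockdown library the cells with Krt16 alone had 6.30% against 5.06%. For chromosome 8 the cells with Krt16 alone had 5.54% against 4.44% and 5.19% against 4.31%, and control cells with both genes had 4.15%. Genes of 1 chromosome share cells and depth and are not replicates, so no test was made.

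**Figure D5:**
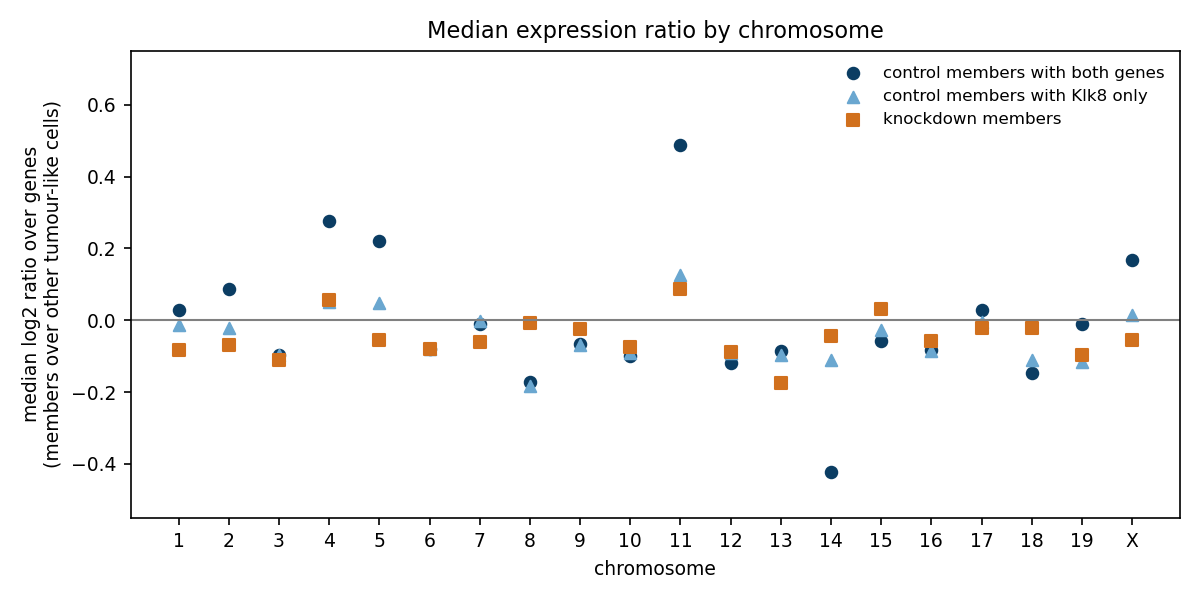
Median log2 ratio over genes by chromosome, Krt16/Klk8 cells (members) over other tumour-like cells of the same library. Points are control cells with both genes, control cells with Klk8 alone and all knockdown members. Chromosome 11 stands at 0.49, 0.13 and 0.09 in that order, and chromosome 14 at -0.42, -0.11 and -0.04.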

How the data were processed

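Single-cell RNA was measured in 1 control and 1 knockdown tumour. The authors deposited raw UMI counts for each cell, without scaling. Cell Ranger is given as 6.1.0 per the file headers and as 3.1.0 per the submitters' processing notes. The genome build, annotation and any later filter on cells are not given in the sources used here. Counts of 34097 genes were summed over cells and scaled to CPM. Genes with at least 50 UMIs in 1 of the 2 groups of cells compared entered counts of 2-fold differences. Ratios have exact conditional binomial intervals, levels exact Poisson intervals and shares exact Clopper-Pearson intervals, all at 95% and for counting error only. The limit given for 0 UMIs, and the floor of a ratio with 0 UMIs on one side, is 3 UMIs per group. No doublets were removed in the main analysis, and no test across libraries was possible. Named genes were the 15 highest and 15 lowest by the interval end nearest 0, found in at least 10% of the higher group, without the gate genes, ribosomal protein genes and genes lacking an own symbol. Gfpt2, Lcn2 and the genes of 32 lists could be named besides. From the lists 3 genes were not matched and 3 with symbols shared by identifiers were left out. Some genes are not reported here. The members and lists were chosen with earlier results of these data known. The alternatives tried were other thresholds, depth thinning, doublet removal, weighting, scaling, comparison cells and count floors. The ratio and interval code was tested on simulated data. Python 3.11.15, numpy 2.4.6, scipy 1.17.1, pandas 2.3.3, scikit-learn 1.9.0 and scanpy 1.11.5 were used.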

Additional observations from a re-analysis of the deposited data

Results flagged for a closer look

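Dpysl3, a cytoskeletal protein of growing neurons, stood on opposite sides in the libraries. In the control library it was lower in the Krt16/Klk8 cells than in the other tumour-like cells, at 21.2 against 81.9 CPM, a log2 ratio of -1.95 (-2.20 to -1.70). In the knockdown library it was at 110 against 89.7 CPM, a log2 ratio of 0.29 (0.0312 to 0.545). In the knockdown library it was at 155 CPM in cells with Krt16 alone and 79.9 CPM in cells with Klk8 alone, and in the control library at 45.3 and 35.7 CPM in those classes and 9.64 CPM in cells with both genes, which are 2 of the 50 knockdown cells. The difference between the libraries was not tested, since each is 1 sample.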

How the results depend on the processing

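Results compared with their main value under other settings gave 54 comparisons, of which 38 kept within the spread set for them and 16 moved. Shares and gene counts cannot change sign, so only the Gfpt2 ratio and the chromosome 11 median could reverse direction, and 0 did. Requiring at least 3 UMIs of Krt16 and Klk8 gave shares of 6.39% (control) and 1.60% (knockdown), at least 10 gave 3.38% and 0.385%, and at least 5 after thinning each cell to 5000 UMIs gave 1.81% and 0.150%. The thinned rule gave a Gfpt2 log2 ratio of 4.41 in place of 5.06 and 1126 genes at least 2-fold higher in place of 609. A floor of 200 UMIs gave 300 higher and 294 lower genes, no floor gave 1882 higher, and taking only cells with both Krt16 and Klk8, chosen after seeing the data, gave 924 higher. The chromosome 11 median lay between 0.29 (at least 3 UMIs) and 0.51 (thinned rule). Why these values moved was not tested, apart from the floors, which by construction change the number of genes tested. The other settings kept the Gfpt2 ratio between 4.69 and 5.40. No paired analysis was possible because each group has 1 library. Depth limits the knockdown cells: over their 1172646 UMIs a count of 0 allows up to 2.56 CPM (3 counts).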
